A study of Triticum aestivum with 12 samples.

Results

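Pina-D1 (TraesCS5D02G004100) and Pinb-D1 (TraesCS5D02G004300) are the puroindoline genes of the Ha (grain hardness) locus on chromosome 5D of bread wheat. They were picked by identifier and are 2 of the 120744 features in the count table. Both passed the filter on low counts and were among the 65080 genes tested. Their counts came from poly-A selected RNA of whole developing grains of the cultivars TAM111 and TAM112. Both are hard red winter wheats of the southern Great Plains. The plants were grown in the field, and the paper names no treatment. Grains were taken at 5 days after flowering (DAF), the early filling stage, and at 14 DAF, the mid filling stage, with 3 libraries for each of the 4 combinations of cultivar and stage. Each library held RNA of several grains of similar size from a single inflorescence, and only the samples of highest quality in a group were sequenced. The libraries held 31916077 to 40464882 counts, so that 1 count was worth 0.0231 to 0.0362 CPM (counts scaled to a fixed library size) after TMM scaling. Whole grains mix starchy endosperm, aleurone, embryo and maternal layers, so fewer cells of a type and less RNA per cell cannot be told apart.

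Puroindolines are small basic lipid-binding proteins, rich in cysteine and carrying a tryptophan-rich domain, which gather at the surface of starch granules in the endosperm. Where both proteins are intact, the grain is soft, since starch granules and protein matrix adhere weakly. Hard wheats carry a null or an altered allele of either gene. Bread wheat holds the genes on the D genome only, since they were lost from the A and B genomes of its tetraploid ancestors. Read counts per gene do not show which coding allele a cultivar carries, and a gene without counts can be silent, deleted or too diverged from the reference for its reads to map.

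Pina-D1 lies on the plus strand of 5D at 3591526 to 3591972 of the IWGSC RefSeq assembly v1.0 (annotation v1.1), and Pinb-D1 on the same strand at 3609672 to 3610121. Each is annotated as a single exon, of 447 bases in Pina-D1 and 450 bases in Pinb-D1, without an intron. Both lengths are multiples of 3, so they may be coding lengths without UTRs. The genes are 17.699 kb apart, and no other annotated gene overlaps either of them. The reference is Chinese Spring, a soft wheat, and both genes received reads in both cultivars.

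At 14 DAF both genes were among the most abundant transcripts of TAM111 grains. Pina-D1, which encodes puroindoline a, had 1630, 1873 and 1682 CPM in the 3 TAM111 libraries. Pinb-D1, which encodes puroindoline b, had 1769, 2450 and 1736 CPM in the same libraries. The level per length, given as TPM (counts per base, scaled to a fixed sum), placed Pina-D1 at ranks 37, 38 and 23 among all features of the 3 libraries. Pinb-D1 stood at ranks 33, 23 and 21 on the TPM scale. The coefficient of variation (CV) over the TAM111 libraries was 7.42% for Pina-D1 and 20.3% for Pinb-D1. The median CV over all genes tested in this group was 17.6%.

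TAM112 grains of the same stage had clearly detected but lower levels. Pina-D1 had 126, 102 and 303 CPM in the 3 TAM112 libraries, with 5333, 4242 and 10890 counts. Pinb-D1 had 83.0, 91.0 and 322 CPM, with 3515, 3779 and 11578 counts. Replicate 3 was the highest of the TAM112 libraries for both genes and the other pair of libraries lay close together. The CV was 62.0% for Pina-D1 and 82.1% for Pinb-D1, against a median of 17.9% over all genes tested in this group. By TPM, Pina-D1 stood at ranks 138, 270 and 68 and Pinb-D1 at ranks 322, 333 and 60.

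At 5 DAF the genes were near or below detection in TAM111 grains. Pina-D1 had 21, 20 and 0 counts in TAM111, or 0.646, 0.592 and 0 CPM. Pinb-D1 had 0, 7 and 0 counts, so a single library gave the 0.207 CPM on which its level rests. A count of 0 allows up to 3 counts at this depth, which is 0.0923 CPM in replicate 1 and 0.0846 CPM in replicate 3 of TAM111, counting error only.

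In TAM112 at 5 DAF the libraries split. Pina-D1 had 435, 454 and 0 counts, or 10.7, 12.7 and 0 CPM. Pinb-D1 had 523, 440 and 4 counts, or 12.9, 12.3 and 0.0924 CPM. Replicates 1 and 2 lay close together for both genes, while replicate 3 was at or near 0 for both, at a depth where 3 counts are 0.0693 CPM. Of 24804 genes with at least 200 counts in replicates 1 and 2 of this group, 40 had at most 4 counts in replicate 3. These 40 include both members, and the limit of 4 equals the count of Pinb-D1 itself. The 3 libraries therefore ran from the TAM111 range to well above it. The comparisons below are given also without replicate 3 of this group. That choice was made from these values, so calls gained by it, in any comparison, are not separate support.

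**Figure D1:**
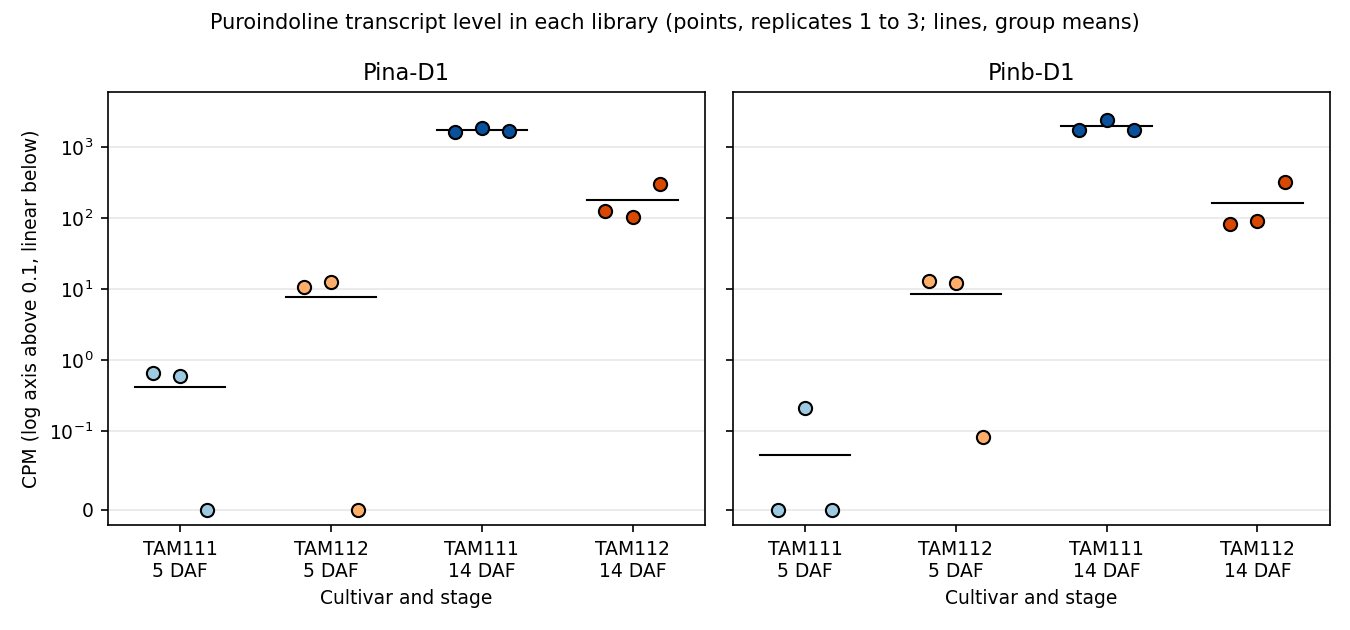
Level of Pina-D1 and Pinb-D1 in CPM (vertical axis, logarithmic above 0.1 and linear below) in each of the 12 libraries, by cultivar and stage. Points are replicates 1 to 3 from left to right and lines are group means, and at 14 DAF the TAM111 points lie from 1630 to 1873 CPM (Pina-D1) and from 1736 to 2450 CPM (Pinb-D1), above every TAM112 point, while at 5 DAF replicate 3 of TAM112 sits at or near 0.

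The order of the group means was the same for both genes. For Pina-D1 they were 1728 ± 128 CPM in TAM111 and 177 ± 110 CPM in TAM112 at 14 DAF, then 7.80 ± 6.83 CPM in TAM112 and 0.413 ± 0.358 CPM in TAM111 at 5 DAF (SD, n = 3 each). For Pinb-D1 they were 1985 ± 403, 165 ± 136, 8.42 ± 7.22 and 0.0691 ± 0.120 CPM in the same order (SD, n = 3 each). Neighbours in this order had libraries that did not overlap, except TAM112 and TAM111 at 5 DAF, which overlapped through replicate 3 of TAM112. The share of all genes that separated likewise was counted only for the cultivars at 14 DAF and is given below.

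The stage comparison asks how the genes changed between early and mid filling within a cultivar. In TAM111 both rose. A gene was called where its absolute log2 fold change was over 1 and its adjusted p was under 0.01 in the quasi-likelihood F test of edgeR, with p adjusted over all genes tested by the method of Benjamini and Hochberg. Pina-D1 rose by 12.03 ± 1.73 on the log2 scale (SE, adjusted p = 0.000216), from a mean of 0.413 to 1728 CPM. Pinb-D1 rose by 14.74 ± 1.82 on the log2 scale (adjusted p = 7.74e-05), but its 5 DAF level was 7 counts in 1 library, so the size of the change is poorly set. Without replicate 2 of TAM111 at 5 DAF its fitted change was 19.10 and it was still called, and without replicate 3 of that group the change of Pina-D1 was 11.43 and that of Pinb-D1 14.15. Of all genes tested, 13.4% were called higher at 14 DAF in TAM111, and 273 had a log2 fold change as high as that of Pina-D1 or higher and 130 as high as that of Pinb-D1 or higher.

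In TAM112 the stages did not overlap for either gene. How many of all genes tested separated in this way was not counted. Of the 65080 genes tested, 33302 had an unadjusted p under 0.05 in this comparison (quasi-likelihood F test). The lowest library at 14 DAF was 8.05 times the highest at 5 DAF for Pina-D1 and 6.45 times for Pinb-D1. Pinb-D1 was called higher at 14 DAF, with a log2 fold change of 4.30 ± 1.14 (adjusted p = 0.00983). Pina-D1 had a like value of 4.51 ± 1.24 and was not called (adjusted p = 0.0122). The share of genes called higher at 14 DAF in TAM112 was 11.8%, and 1564 genes had a log2 fold change as high as that of Pina-D1 or higher. Both calls turned on single libraries: without replicate 3 of TAM112 at 5 DAF both genes were called (3.91, adjusted p = 0.00219 for Pina-D1, and 3.71, adjusted p = 0.00259 for Pinb-D1), and Pina-D1 was called also without replicate 3 of TAM111 at 5 DAF (4.50, adjusted p = 0.00858). Leaving out any of the other 11 libraries ended the call of Pinb-D1. With the replicate number as a block over all 12 libraries, its change was 4.48 and not called (adjusted p = 0.0236).

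The cultivar comparison at 14 DAF asks where the grains of TAM111 and TAM112 differ at mid filling. Every TAM112 library was below every TAM111 library for both genes. The mean of TAM112 was 9.76-fold lower for Pina-D1, and the lowest TAM111 library was still 5.38 times the highest TAM112 library. For Pinb-D1 the mean of TAM112 was 0.0833 times that of TAM111 and the closest libraries were 5.39-fold apart. Among all genes tested, 28.8% had every TAM112 library below every TAM111 library, so the separation itself was common, whereas 1554 genes had a log2 fold change as low as that of Pina-D1 or lower and 1220 as low as that of Pinb-D1 or lower.

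Neither gene was called in the fit to all 12 libraries. The log2 fold change was -3.29 ± 1.17 for Pina-D1 (adjusted p = 0.0457) and -3.59 ± 1.096 for Pinb-D1 (adjusted p = 0.0243), where 7.45% of the genes tested were called lower in TAM112. The fit uses 1 estimate of the spread per gene for all groups. A separate gene-wise dispersion from edgeR, which the F test does not use, was far above most genes for the members. It gave a biological CV of 1.11 for Pina-D1 and 0.975 for Pinb-D1, against a median of 0.247 over genes. Replicate 3 of TAM112 at 5 DAF is outside this comparison but enters that shared estimate of the spread. It was singled out for its low counts of these genes, so calls made without it are not separate support. Without that library both were called at nearly the same fold change (-3.29, adjusted p = 0.00196, and -3.58, adjusted p = 0.00123). Of the 12 fits that each left out 1 library, it was the only 1 that called either gene. Adjusted p over those fits reached 0.14 for Pina-D1 and 0.0897 for Pinb-D1. Both were called also when the 14 DAF libraries alone were fitted (-3.26, adjusted p = 0.00114, and -3.56, adjusted p = 0.00226).

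At 5 DAF the direction of the means was the opposite, higher in TAM112, but the libraries overlapped. The mean was 18.9-fold higher in TAM112 for Pina-D1, with a log2 fold change of 4.24 ± 1.34 that was not called (adjusted p = 0.0703). This fold of means was 28.3 without replicate 3 of TAM112 and again 18.9 without replicate 3 of both cultivars. For Pinb-D1 the log2 fold change of 6.86 ± 1.53 was not called either (adjusted p = 0.0174). Of all genes tested, 3.39% were called at this stage. Without replicate 3 of TAM112 at 5 DAF both genes were called higher in TAM112 (4.83, adjusted p = 0.00174 for Pina-D1, and 7.44, adjusted p = 0.00029 for Pinb-D1). That library was singled out for its low counts of these genes, so these calls are not separate support. Of the 12 fits that each left out 1 library, it was the only 1 that called either gene. Adjusted p over those fits reached 0.192 for Pina-D1 and 0.0629 for Pinb-D1. Replicate 3 was at 0 for both genes in TAM111 too. The replicate numbers were taken to pair the cultivars at this stage from the values alone, since the labels state no pairing. Within these pairs, both genes were higher in TAM112 in replicates 1 and 2. In replicate 3 Pina-D1 was 0 in both cultivars. Pinb-D1 had 4 counts in TAM112 against 0 in TAM111 there, and their 95% counting intervals overlapped. Neither gene was called with the replicate number as a block (4.14, adjusted p = 0.0968, and 6.84, adjusted p = 0.0338), and both were called without replicate 3 of both cultivars (4.23, adjusted p = 0.000527, and 6.85, adjusted p = 0.00118).

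The interaction of cultivar and stage tests whether the cultivar difference itself changed between 5 and 14 DAF. It was -7.53 ± 1.78 for Pina-D1 (adjusted p = 0.0352) and -10.45 ± 1.89 for Pinb-D1 (adjusted p = 0.0157) on the log2 scale, and neither was called, where 0.309% of the genes tested were. Without replicate 3 of TAM112 at 5 DAF the interaction was called for both genes (-8.12, adjusted p = 0.00167, and -11.03, adjusted p = 0.000704), and without replicate 3 of TAM112 at 14 DAF for Pinb-D1 (-11.38). Without replicate 2 of TAM111 at 5 DAF, which held the only counts of Pinb-D1 in its group, the fitted value for Pinb-D1 was -14.81 and was not called.

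**Figure D2:**
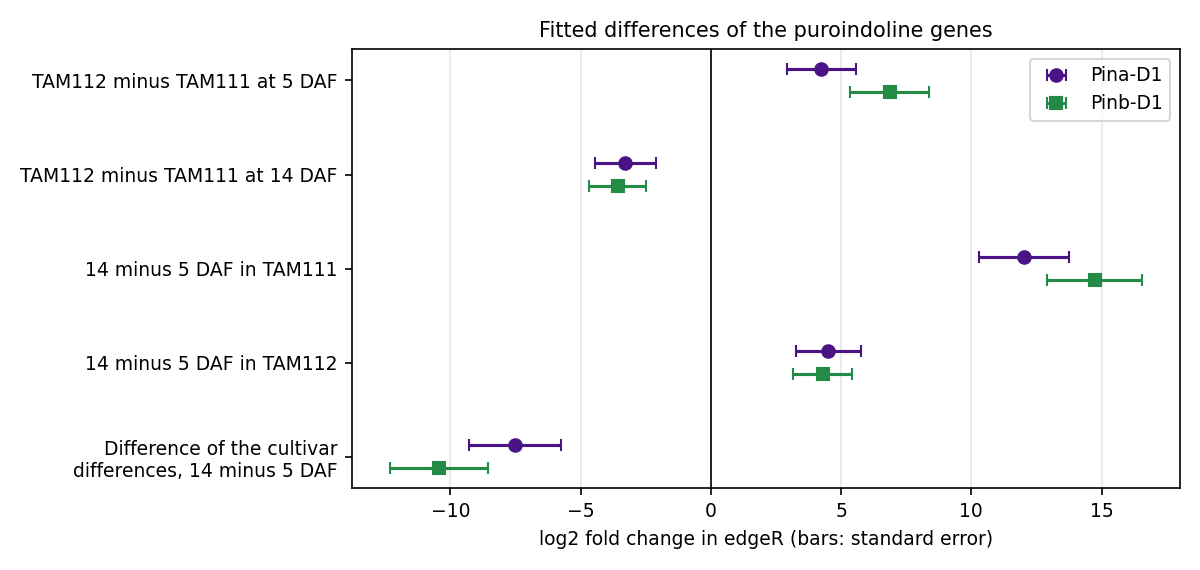
Fitted log2 fold change (horizontal axis) of Pina-D1 and Pinb-D1 in the 4 comparisons and the interaction, from the fit to all 12 libraries, with bars of 1 standard error. Both genes lie on the same side of 0 in each line, at 4.24 and 6.86 for TAM112 minus TAM111 at 5 DAF and at -3.29 and -3.59 at 14 DAF.

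Pina-D1 and Pinb-D1 moved together over the libraries, except at the low counts of TAM111 at 5 DAF. The ratio of Pina-D1 to Pinb-D1 in counts per kilobase, which does not depend on library scaling, was 0.927, 0.770 and 0.975 in TAM111 at 14 DAF. It was 1.53, 1.13 and 0.947 in TAM112 at 14 DAF. The cultivars overlapped, with a difference in the log2 ratio of 0.41 (exact permutation test, two-sided, p = 0.2, where 3 against 3 libraries cannot go below 0.1). At 5 DAF the ratio was 0.837 and 1.04 in replicates 1 and 2 of TAM112. It was 2.88 in replicate 2 of TAM111, where it rests on 20 and 7 counts. In replicate 1 of TAM111 it was undefined, with 21 counts of Pina-D1 against 0 of Pinb-D1. It was undefined or 0 in replicate 3 of both cultivars. With 1 count added to each gene the ratio was tested in all 5 planned comparisons, and none passed (exact permutation tests, two-sided, p = 0.1 to 0.242, adjusted p = 0.242 each), where values at 5 DAF depend on the added count.

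TraesCS5D02G004000, the next listed gene before Pina-D1, followed the same pattern. It lies on the plus strand of 5D at 3571184 to 3571678, a single exon of 495 bases that ends 19.847 kb before Pina-D1, and the sources used here give it no name. It had 63476, 64586 and 48098 counts in TAM111 and 4535, 6674 and 13424 counts in TAM112 at 14 DAF. At 5 DAF it had 0, 2 and 2 counts in TAM111 and 411, 264 and 0 counts in TAM112, so that replicate 3 of TAM112 was again at 0. It was called higher at 14 DAF in both cultivars (adjusted p = 6.02e-05 in TAM111 and 0.00383 in TAM112, where the log2 fold change was 5.20 ± 1.16). Between the cultivars at 14 DAF its log2 fold change was -3.29 ± 1.05 and, like those of the members, not called (adjusted p = 0.0298). Without replicate 3 of TAM112 at 5 DAF it was called lower in TAM112 at 14 DAF (-3.29 ± 0.45, adjusted p = 0.000339), and its stage change in TAM112 was 4.60 ± 0.57 (adjusted p = 0.00021).

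The other listed genes around the members had low counts. TraesCS5D02G004200, which lies between Pina-D1 and Pinb-D1 on the minus strand, had at most 1 count in a library and was not tested. TraesCS5D02G003600, TraesCS5D02G003700 and TraesCS5D02G004500 had no count in any library. Of the 5 listed genes on each side and the gene between, 7 were tested, and apart from TraesCS5D02G004000 none had a group mean over 14.9 CPM. In TAM112 at 14 DAF, TraesCS5D02G004800 was called higher than in TAM111 (log2 fold change 1.16 ± 0.18, adjusted p = 0.000749). TraesCS5D02G004600, whose position overlaps TraesCS5D02G004500 on the other strand, was called lower in TAM112 at 14 DAF (-2.12 ± 0.48, adjusted p = 0.00603) and higher at 14 than at 5 DAF in TAM111 (2.11 ± 0.49, adjusted p = 0.0041). TraesCS5D02G004400 (2.86 ± 0.51, adjusted p = 0.00105) and TraesCS5D02G004700 (2.39 ± 0.45, adjusted p = 0.00138) were called higher at 14 than at 5 DAF in TAM112. They were still called without replicate 3 of TAM112 at 5 DAF, at 3.001 for TraesCS5D02G004400 and 2.71 for TraesCS5D02G004700. Between the cultivars at 5 DAF edgeR called 0 of the 7, 2 had an unadjusted p under 0.05 (26.8% of all genes tested) and DESeq2 called 1 in each direction (5.77% of all genes in either), and TraesCS5D02G004700 had an unadjusted p of 0.000489 and an adjusted p of 0.0126. Without replicate 3 of TAM112, TraesCS5D02G004000 alone of the 7 was called there, higher in TAM112 (adjusted p = 3.82e-05).

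**Figure D3:**
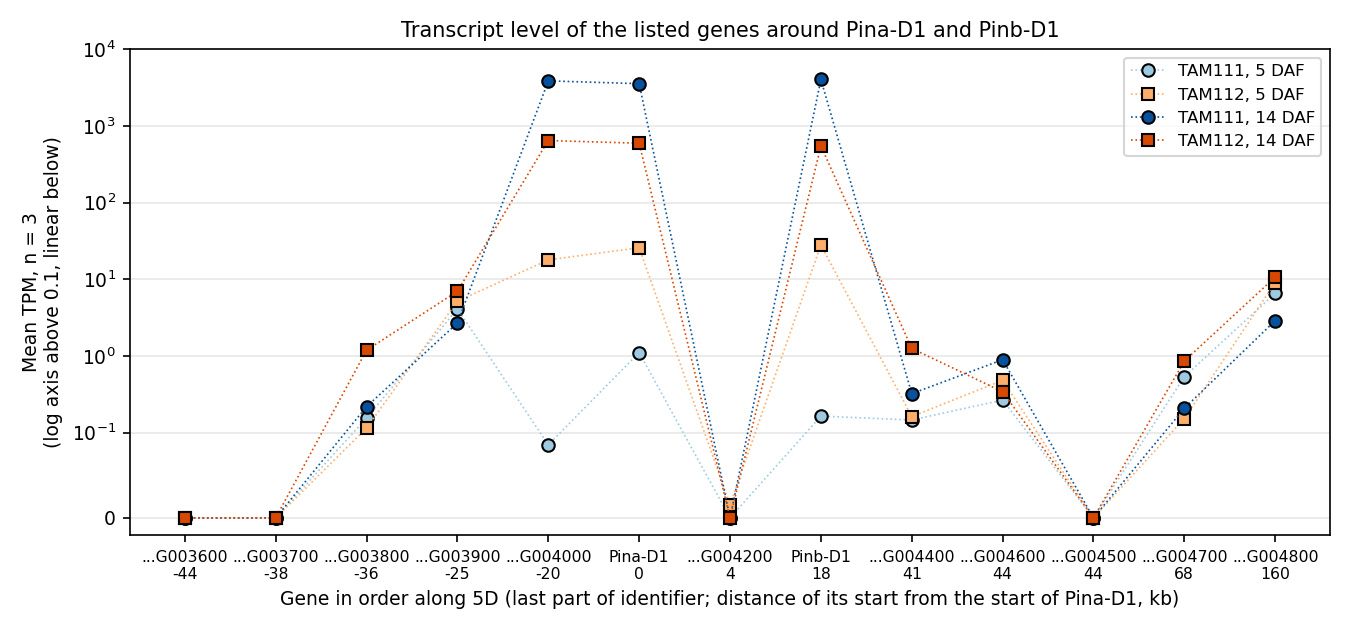
Mean level in TPM (vertical axis, logarithmic above 0.1 and linear below, n = 3 libraries a group) of Pina-D1, Pinb-D1 and the listed genes around them, in order along 5D with the distance of each start from that of Pina-D1 in kb. Dotted lines only join points of a group, and the members and TraesCS5D02G004000 stand apart from the other listed genes, with TraesCS5D02G004200 between the members at a highest count of 1.

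Likeness over the 12 libraries was measured as Pearson's r of log2(CPM + 1) and is given as a description. The genes most like Pina-D1 were TraesCS7D02G168000, TraesCS1A02G398200 and TraesCS3D02G095700, each at 0.998, then Pinb-D1 at 0.998 and TraesCS1D02G405700 at 0.997. For Pinb-D1 they were TraesCS7D02G168000, TraesCS1B02G426100 and TraesCS7B02G072000, each at 0.999, then TraesCS3D02G095700 and TraesCS1A02G398200 at 0.998. TraesCS5D02G004000 stood at rank 8 for Pina-D1 and at rank 7 for Pinb-D1, and Pina-D1 at rank 6 for Pinb-D1. The sources used here give no name for these identifiers, and apart from the members and TraesCS5D02G004000 they lie on 1A, 1B, 1D, 3D, 7B and 7D. The points share the large contrast between stages, so high values were common: of 65079 other genes, 2309 had an r over 0.9 with Pina-D1 and 2074 with Pinb-D1.

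TraesCS7D02G168000, on the minus strand of 7D at 118156898 to 118157335, showed how close the match was. It had 80957, 102788 and 78093 counts in TAM111 and 4215, 5864 and 15714 counts in TAM112 at 14 DAF. At 5 DAF it had 10, 13 and 6 counts in TAM111 and 594, 555 and 0 counts in TAM112. As for both members, replicate 3 was the highest TAM112 library at 14 DAF and the lowest at 5 DAF.

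A list of 10 genes was used to stand for the starchy endosperm, the tissue in which puroindolines are made; their identities could not be checked against an annotation. The summed level of the list was 12619 to 28847 CPM in TAM111 and 1075 to 5916 CPM in TAM112 at 14 DAF. In the libraries of 5 DAF the sum ran from 304 to 539 CPM for TAM111 and from 411 to 763 CPM for TAM112. Replicate 3 was the highest of TAM112 at 14 DAF and the lowest of TAM112 at 5 DAF, as for the members.

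The list was not uniform. Its 4 genes on 1B and 1D (TraesCS1D02G317211, TraesCS1D02G317301, TraesCS1B02G329711 and TraesCS1B02G329992) made up most of the sum at 14 DAF, with 11002 to 26056 CPM in TAM111 and 902 to 5204 CPM in TAM112. At 5 DAF they had 0.113 to 0.461 CPM in TAM111 and 0 to 73.1 CPM in TAM112, with all 4 at 0 in replicate 3. Over the 12 libraries their r with the members was 0.985 to 0.994. The other 6 made up nearly all of the sum at 5 DAF, with 304 to 539 CPM in TAM111 and 411 to 732 CPM in TAM112, and had 1617 to 2791 CPM in TAM111 and 172 to 712 CPM in TAM112 at 14 DAF. Their r with the members was 0.82 to 0.893 for 4 of them, and 0.274 and 0.312 for TraesCS7A02G070100 and 0.318 and 0.356 for TraesCS7D02G064300. From 5 to 14 DAF in TAM112 these last had log2 fold changes of -1.58 (TraesCS7A02G070100, adjusted p = 0.0198) and -1.30 (TraesCS7D02G064300, adjusted p = 0.031), neither called, opposite in sign to the members.

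Between the cultivars at 14 DAF, 3 of 10 list genes were called lower in TAM112 (TraesCS7A02G070100, TraesCS4A02G418200 and TraesCS7D02G064300; 7.45% of all genes), 0 higher, and the median log2 fold change of the list was -2.62 against -0.01 over all genes tested. With replicate 3 of TAM112 at 5 DAF left out, 5 of 10 were called lower (8.41% of all genes). From 5 to 14 DAF in TAM111, 7 of 10 were called higher (13.4% of all genes), with a list median of 4.77 against 0.04 over all genes, and DESeq2 called 10 (15.7%). In TAM112, 4 of 10 were called higher (11.8% of all genes), with a list median of 0.75 against 0.01, and DESeq2 called 4 higher (14.6%) and 2 lower (10.5%). The count in TAM112 was again 4 without replicate 3 of TAM112 at 5 DAF, with a list median of 0.19, and that in TAM111 was 8.

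Between the cultivars at 5 DAF edgeR called 0 of 10, 4 had an unadjusted p under 0.05 (26.8% of all genes) and DESeq2 called 3 higher in TAM112 (2.57%). In the interaction edgeR called 0 of 10, all 10 had an unadjusted p under 0.05 (23.3% of all genes) and DESeq2 called 7 lower (2.51%). When replicate 3 of TAM112 at 5 DAF was left out, edgeR called 4 of 10 higher in TAM112 at 5 DAF (1.598% of all genes) and 4 of 10 lower in the interaction (0.818%).

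Set against the summed list, the libraries of the cultivars overlapped at 14 DAF. Most of that sum came from the 4 genes on 1B and 1D, which followed the members closely (r of 0.985 to 0.994). The members together had 15.0 to 27.1 CPM for each 100 CPM of the list in TAM111 and 10.6 to 19.4 in TAM112. At 5 DAF the same measure was 0 to 0.263 in TAM111 and 0.0225 to 3.33 in TAM112, below every 14 DAF library. The other 6 genes alone had 2084, 2791 and 1617 CPM in TAM111 and 172, 216 and 712 CPM in TAM112 at 14 DAF. Relative to these 6, the members together were higher in every TAM111 library than in every TAM112 library, which was not tested. The share of all genes that separate in this way against these 6 was not counted. In plain CPM, 28.8% of the genes tested had every TAM112 library below every TAM111 library. The part that the amount of endosperm in the grains had in these differences was not tested.

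**Figure D4:**
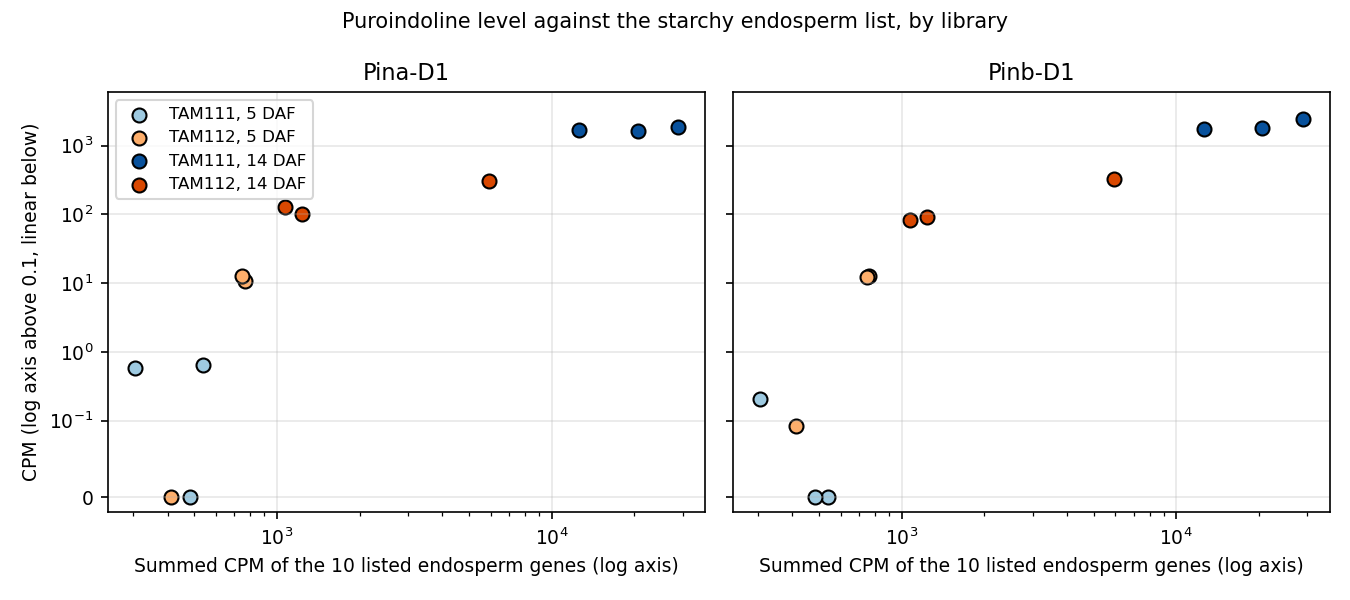
Level of Pina-D1 and Pinb-D1 in CPM (vertical axis, logarithmic above 0.1 and linear below) against the summed CPM of the 10 genes that stand for the starchy endosperm (horizontal axis, logarithmic), with 1 point for each of the 12 libraries. The TAM111 libraries at 14 DAF lie at the upper right, with list sums of 12619 to 28847 CPM, the TAM112 libraries at 14 DAF lie at 1075 to 5916 CPM, and the 5 DAF libraries lie at the lower left.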

How the data were processed

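Reads were trimmed by the authors (Cutadapt, then Trimmomatic), aligned to IWGSC RefSeq assembly v1.0 by HISAT2 and assigned to genes of annotation v1.1 by featureCounts. The deposited values are whole counts per gene, neither normalized nor filtered, and all count columns were used (0 left out). Cultivar and stage were taken from sample titles and characteristics, where stage is abbreviated DAP and is written here as DAF after the methods; the growth protocol gives 1 cultivar name, spelled unlike either, for all samples. The strand and multi-mapping options are not given in the sources used here.

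The analysis used edgeR 4.0.16 under R 4.3.3 (filterByExpr, TMM factors, 1 coefficient per group over 12 libraries, quasi-likelihood F test). To obtain an SE, the size of the log2 fold change was divided by the root of F. CPM used TMM-scaled library sizes, and TPM the deposited gene lengths. DESeq2 1.42.0 was an alternative. Labels do not say that libraries of a group came from separate plants, so p-values measure the spread between these samples.

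Replicate numbers were checked for pairing by correlating deviations from group means. Between the cultivars at 5 DAF all 3 values were over 0.1 (0.478, 0.393 and 0.581), read from the values alone, so the numbers were taken to pair those libraries; no other combination of groups had all 3 over 0.1.

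The members and lists were chosen with earlier results of these data known. Named genes are the members, the 5 listed genes on each side and any between, the starchy endosperm list and the 5 genes most like each member; TraesCS5D02G004000 and TraesCS7D02G168000 were described in more detail after their values were seen. Marker lists by product name, promoter motifs and sequences were not used here, since no table paired these identifiers with names or sequences. The ratio of the members was undefined in libraries with a count of 0, so its tests at 5 DAF, between stages and over both stages were run with 1 count added.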

Additional observations from a re-analysis of the deposited data

How the results depend on the processing

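No alternative reversed the direction of a member's change, and both genes were called higher at 14 DAF in TAM111 under every alternative that tested them. All values are log2 fold changes, and the cause of a changed call was not tested unless stated. With no scaling factors, Pina-D1 between stages in TAM112 (4.58) and the interaction of Pinb-D1 (-10.16) gained a call. With no filter on low counts, Pinb-D1 at 5 DAF (6.87), Pina-D1 between stages in TAM112 (4.50) and the interaction of Pinb-D1 (-10.44) gained one. DESeq2's Wald test called Pinb-D1 at 5 DAF (6.89) and its interaction (-10.47). When only the groups compared were fitted, both members gained a call at 14 DAF (-3.26 and -3.56). Pinb-D1 between stages in TAM112 lost its call in that fit (4.30), in a test against a fold threshold with glmTreat (4.30) and with the replicate block (4.48), which changed no other call of the members. A setting chosen after seeing the data left out replicate 3 of both cultivars at 5 DAF. It gained calls for both members at 5 DAF (4.23 and 6.85), at 14 DAF (-3.29 and -3.59) and in the interaction (-7.52 and -10.44), and for Pina-D1 between stages in TAM112 (3.91).

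Leaving out each of the 12 libraries in turn gave, for Pina-D1 and Pinb-D1, 3.65 to 4.83 and 6.27 to 11.24 at 5 DAF, -3.93 to -3.01 and -4.52 to -3.26 at 14 DAF, 11.43 to 12.49 and 14.15 to 19.10 between stages in TAM111, 3.85 to 5.04 and 3.34 to 4.74 between stages in TAM112, and -8.17 to -6.93 and -14.81 to -9.86 in the interaction. The log2 ratio of the members at 14 DAF differed by 0.22 to 0.57. A filter of 10 counts in every library removed both members, and Pinb-D1 at 5 DAF was not tested when only those groups were fitted.

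Counts over all genes moved by more than 1.5 times as follows. At 5 DAF, 2203 became 1125 with the stricter filter, 1276 with glmTreat, 1308 with only the groups compared and 3757 with DESeq2. At 14 DAF, 9417 became 2279 with glmTreat and 5104 to 10503 without a library. Between stages, 15609 became 6633 (glmTreat) and 10184 (stricter filter) in TAM111, and 13694 became 4568 (glmTreat) and 8979 to 14272 without a library in TAM112. The 201 interaction calls became 891 with no scaling, 413 with no filter, 561 with the stricter filter, 17 with glmTreat, 105 with the replicate block, 876 without both replicates 3 at 5 DAF, 3239 with DESeq2 and 28 to 963 without a library. With no scaling the median of all genes at 14 DAF moved from -0.01 to 0.45 and 82.6% rather than 48.5% of the calls were higher in TAM112. Members at 0 to 7 counts in 5 DAF libraries limit the size of any fold against them.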
